A study of Drosophila melanogaster with 3 samples.

Results

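The long introns described here are the 553 distinct introns of 10000 nt or more in the full-length transcripts of Drosophila melanogaster heads. They were chosen by their measured length alone, from 16016 distinct introns that lie between consecutive exons of 4700 multi-exon isoforms of 3795 genes. An intron was distinct by its chromosome, strand, start and end, so introns that share 1 splice site count separately. Long introns therefore made up 3.45% of all introns, and 384 genes had at least 1, which is 10.1% of the genes with a multi-exon isoform.

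The study dealt with the relation of transcription initiation sites to the exons and the 3′ end of an mRNA. Its heads came from 3-day-old untreated flies of the strain w1118 kept at 25 °C. PacBio Iso-seq, which reads single cDNA molecules from end to end, was run on 3 libraries made from head RNA and enriched for transcripts above 3 kb, and the authors merged them into 1 set of isoforms. That set lists exon positions on the dm6 build and no abundance, so there is 1 group, no spread between libraries and no depth behind a single isoform, and every interval or p-value here covers only the number of introns or genes counted. Of 16 head markers 16 had an isoform (8 of 8 for photoreceptors, 4 of 4 for glia and 4 of 4 for neurons), against 0 of 8 markers of germline and egg chambers.

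An intron is transcribed whole and then removed by the spliceosome, which joins the 5′ splice site (donor) at its start to the 3′ splice site (acceptor) at its end. Most fly introns are short and are recognised as a unit across the intron, whereas long introns are recognised across the flanking exons and some are removed stepwise by recursive splicing. Long introns take time to transcribe, often hold enhancers and further promoters, and can carry whole genes within them, called nested genes.

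Long introns ranged from 10033 to 189627 nt, with a median at 16140 nt (quartiles 12654 and 24954 nt). For introns under 10000 nt the median was 82 nt (quartiles 62 and 521 nt). These lengths follow from the choice of introns and are given as a description. In all, 361 long introns (65.3%) were shorter than 20000 nt, 167 (30.2%) were from 20000 to under 50000 nt, and 25 (4.52%) reached 50000 nt or more. The shortest members belonged to TfAP-2 (10080 nt), the polarity gene scrib (10072 nt) and CG31523 (10033 nt). The longest introns left out belonged to ctrip (9991 nt), the kinase gene par-1 (9980 nt) and Npl4 (9942 nt). The distribution of lengths has no gap at this boundary. Counted once per base, the long introns covered 10.76 Mb of the 20.39 Mb of all introns, or 52.8%.

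**Figure D1:**
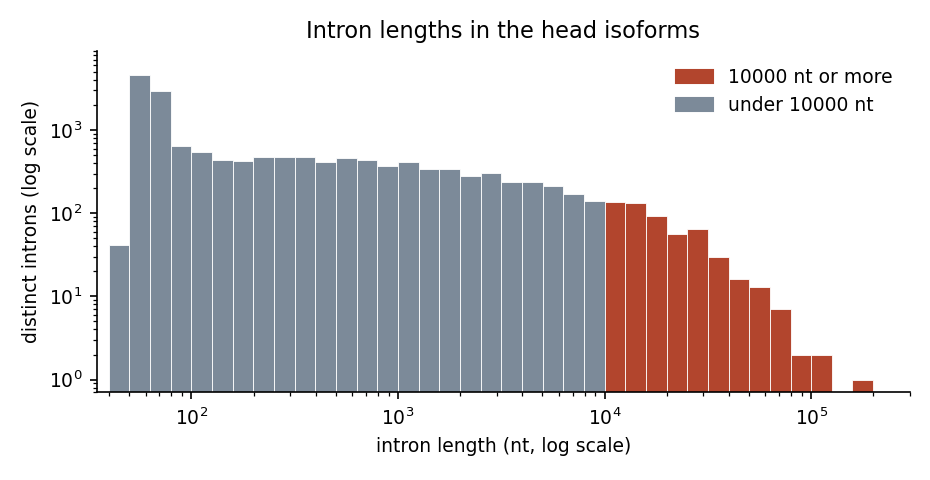
Number of distinct introns (log scale) in classes of intron length (nt, log scale), with long introns in red and introns under 10000 nt in grey. Most introns lie near the median of 82 nt, and the 553 long introns form the right-hand tail, which ends at 189627 nt.

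The longest intron lay in lovit, which encodes a vesicular transporter that loads histamine at photoreceptor synapses. It spanned 189627 nt on chromosome 3L (25481047 to 25670673, minus strand) and was the second of 6 introns, inside the coding region. The same isoform held introns of 59000 nt and 116882 nt at ranks 3 and 5, while its other introns had 54 to 67 nt. Its 7 exons add up to 1809 nt of mRNA over 367.5 kb of genome, so 0.492% of the transcribed region was exonic. No other gene had 2 introns over 100000 nt.

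The remaining intron over 100000 nt was the first of 15 in rdgA, the retinal diacylglycerol kinase gene of the phototransduction pathway. It had 101884 nt (X, 8912945 to 9014828, plus strand) and was carried by 2 of the 3 rdgA isoforms. The donor and the acceptor are both annotated, but not joined to each other. The later introns of rdgA had 65 to 1533 nt, so its long intron lies alone at the 5′ end.

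The remaining introns among the 15 longest came from genes of several kinds. The second intron of mtgo, which encodes a fibronectin type III protein, had 92798 nt, and the second intron of CG44837 had 82096 nt. Pde1c, a calcium-dependent cyclic nucleotide phosphodiesterase gene, had an intron of 72912 nt at rank 3, and kek5, a leucine-rich repeat and immunoglobulin receptor gene, had a second intron of 70132 nt. First introns followed in bru1 (69819 nt), an RNA-binding protein gene of the Bruno family, and in Mnr (69246 nt). Hs6st, a heparan sulphate sulphotransferase gene, had a second intron of 67778 nt. Ten-m, a teneurin of synaptic partner matching, and the adhesion gene Fas3 had first introns of 66250 and 62671 nt. Second introns of 63401 nt in ome, a dipeptidyl peptidase gene, and of 58892 nt in the kinase gene nmo complete this list. All 15 had rank 1, 2, 3 or 5.

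Several of these isoforms are short. The Ten-m isoform has 2 exons and 1359 nt, and the isoform of sli, the midline repellent, has 2 exons, 1240 nt and 1 intron of 30358 nt. mbl, the muscleblind splicing factor gene, was represented by 3 exons of 605 nt in all around an intron of 55306 nt. For such isoforms the intron is well placed from the 5′ end, but the downstream exons of the gene were not seen. Their 3′ ends may be artefacts, since it is not stated whether the authors' filter for true 3′ ends was applied to this set.

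**Figure D2:**
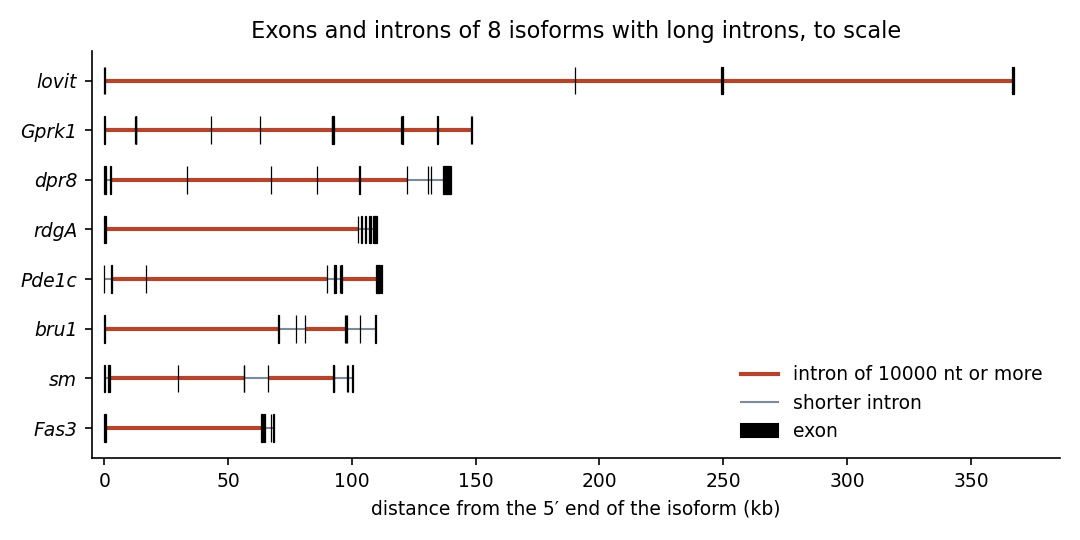
Exons (black) and introns of 8 isoforms, drawn to scale against the distance from the isoform's 5′ end (kb), with introns of 10000 nt or more in red. In lovit 3 of 6 introns and in Gprk1 7 of 14 are long, whereas rdgA and Fas3 have 1 long intron at the 5′ end followed by closely spaced exons.

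Most genes had a single long intron (268 of 384), 84 had 2 and 32 had 3 or more. Gprk1, a G protein-coupled receptor kinase gene, had the most, with 7 in 1 isoform, at ranks 1, 5, 6, 7, 10, 12 and 13 of 14. They measured 12252, 30025, 19903, 28825, 27150, 13965 and 13438 nt in that order, and the other introns of this isoform had 51 to 350 nt. CG40470 had 6 long introns of 11603 to 39476 nt, all in 1 isoform of 13 exons. CG40006 had 5 of 11915 to 36881 nt, and dpr8, an immunoglobulin-domain gene of neuronal surface recognition, had 5 of 16865 to 34062 nt. Dbp80, a DEAD-box RNA helicase gene, and Fur1, a furin protease gene, each had 4, the longest of 38722 nt in Dbp80 and 40500 nt in Fur1. The long introns of dpr8 (ranks 2 to 6) and of Fur1 (ranks 1 to 4) followed each other directly, whereas in CG40470 introns of 50 to 67 nt lay between some of them.

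In other genes some of the long introns came from alternative splice sites over the same bases. The hnRNP gene sm had 5, of which 3 start within 21 nt of each other and measured 26250, 18402 and 18381 nt. bru1 had 5, with introns of 69819 and 29810 nt that end at the same acceptor and introns of 69819 and 39096 nt that start at the same donor. mod(mdg4), a locus of BTB chromatin proteins whose 3′ exons are joined by trans-splicing, had 5, of up to 21325 nt. Altogether 62 long introns shared their acceptor with another long intron, at 31 acceptors, and 21 shared their donor, at 9 donors. In EcR, the ecdysone receptor gene, introns of 56758 and 27810 nt shared an acceptor, as did introns of 55775 and 52543 nt in rdx, which encodes an adaptor of a Cullin ubiquitin ligase.

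The isoforms that carry a long intron were also larger as mRNAs. Intron length does not enter this measure, but an isoform with more exons has more introns and so more chances to carry a long one. The 511 carriers had a median spliced length of 2863 nt (quartiles 2105 and 3761 nt) and 7 exons, against 1972 nt (1371 and 2774 nt) and 4 exons in the 4189 other multi-exon isoforms. Their genomic span, which the long intron itself lengthens, had a median of 26610 nt against 3299 nt in the other isoforms. Exons made up a median of 9.95% of that span in carriers and 66.8% in the other isoforms. The longest intron alone took a median of 67.1% of a carrier's span. In 110 isoforms there were 2 or more long introns, and in 25 there were 3 or more.

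Where long introns lie along the transcript was asked next, since position was not used to choose them. Long introns lay near the 5′ end: 245 (44.3%, 95% Wilson interval 40.2 to 48.5%) were the first intron of at least 1 isoform, against 4015 of 15463 shorter introns (26%, 25.3 to 26.7%). Another 179 (32.4%) were second introns, against 19.9% of shorter ones, and 129 (23.3%) lay at rank 3 or later, against 54.1% of shorter ones. Last introns made up 16.1% of long introns and 26.1% of shorter ones. The sole intron of a transcript was long in 35 cases, 6.33% of long introns, while 4.49% of shorter introns were sole introns.

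Read by rank, 5.75% of first introns and 5.49% of second introns were long. Their intervals overlap (5.09 to 6.49% and 4.76 to 6.32%), so the 2 ranks were not separated beyond counting error. The share was 2.32% at rank 3, 1.46% at rank 4, 1.02% at rank 5, 1.18% at ranks 6 to 9 and 0.854% (6 of 703 introns) at rank 10 or more. The median length of all introns was 400 nt at rank 1, 88 nt at rank 2 and 69 to 80 nt from rank 3 on. Second introns were thus long as often as first introns although their median was several times lower. The long introns themselves had a median of 15244 nt at rank 1, 16972 nt at rank 2, 15481 nt at rank 3, 18109 nt at rank 4, 20728 nt at rank 5, 18381 nt at ranks 6 to 9 and 20557.5 nt at rank 10 or more. The later ranks rest on 6 to 27 introns each.

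**Figure D3:**
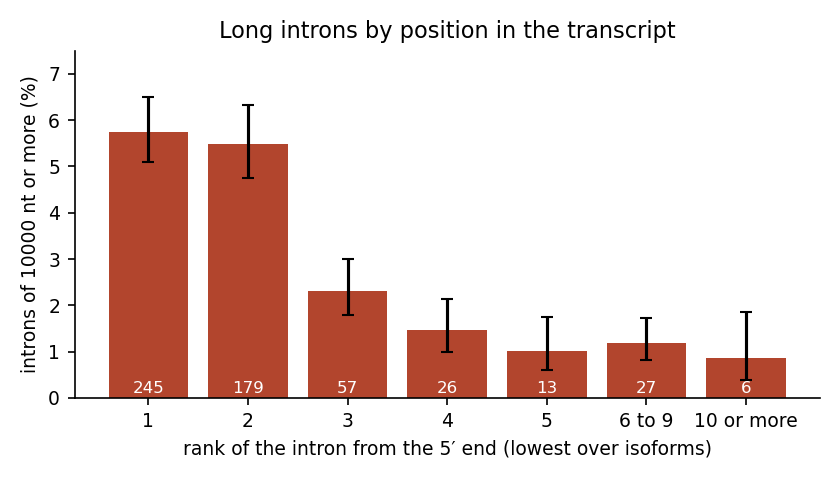
Percent of introns that were 10000 nt or longer at each rank counted from the 5′ end, with 95% Wilson intervals and the number of long introns in each bar. Ranks 1 and 2 lie above 5%, rank 3 at 2.32% and every later class below 1.5%.

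Within genes, the first and the last intron of 1 isoform per gene were compared. Among 3101 genes with at least 2 introns, only the first was long in 159 and only the last was long in 24, so the long one was the first in 86.9% of 183 genes (81.1 to 91.4%, Clopper-Pearson). The adjusted p of the exact sign test, two-sided, was 2.54e-25. Both ends were long in 12 genes, and in 146 further genes only an inner intron was long. With isoforms whose whole splice chain is annotated, the first was the long one in 124 of 135 genes (91.9%). The last intron of an isoform need not be the last of the gene, since the 3′ part may be missing from short isoforms.

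Relative to the start codon, long introns were divided between the leader and the coding region. Of 541 with an annotated position, 251 (46.4%, 42.2 to 50.6%) lay before the start codon, 273 (50.5%) within the coding region and 3 after the stop codon, and 14 differed between annotated transcripts. Of shorter introns, 11.2% lay before the start codon and 84.0% within the coding region. The difference held at both positions. Among first introns, 66.1% of long ones (59.9 to 71.8%) and 39.7% of shorter ones (38.1 to 41.2%) preceded the start codon. Among later introns, 30.8% of long ones (93 of 302, 25.9 to 36.2%) and 1.23% of shorter ones did so. The long introns of Pde1c at ranks 2 and 3 and of kek5 at rank 2 are of this kind, whereas those of lovit, mtgo and Hs6st interrupt the coding region. The exon upstream of a long first intron had a median of 498 nt, against 237 nt upstream of shorter first introns. The downstream exon had a median of 281 nt after long first introns and 312 nt after shorter ones.

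Nearly every long intron was already annotated, 541 of 553 (97.8%, 96.2 to 98.8%), against 99.7% of shorter introns. The authors had corrected splice junctions with short-read data, so these shares describe corrected isoforms rather than raw reads. The 12 long introns that were not annotated joined annotated donors to annotated acceptors in combinations that the annotation does not hold. Besides rdgA they include 39096 and 10759 nt in bru1, 37949 nt in dpy, which encodes a giant cuticle-anchoring protein, 32897 nt in CG31145, 31652 nt in btsz, a synaptotagmin-like gene, and 24531 nt in Sox102F, a transcription factor gene. A pair in CG42795 had 12998 and 12857 nt. The remaining ones lay in sowah (23521 nt), rdo (20731 nt) and MRP (10842 nt).

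Conversely, the annotation holds 2449 introns of 10000 nt or more in 1110 genes, the longest of 268107 nt. Within genes that had a multi-exon isoform, 354 of 705 annotated introns of 10000 to under 20000 nt (50.2%, 46.5 to 53.9%) were found, 156 of 383 of 20000 to under 50000 nt (40.7%) and 24 of 80 of 50000 nt or more (30%, 21.1 to 40.8%). For introns of 1000 to under 10000 nt the share was 48.1% (46.8 to 49.4%), for those of 100 to under 1000 nt 57.0%, and for those under 100 nt 78.9%. Introns of 10000 to under 20000 nt were therefore found about as often as those of 1000 to under 10000 nt, and the share was lower above 20000 nt. Genes with a long annotated intron were not rare in these heads. Of the protein-coding ones, 488 of 1070 (45.6%, 42.6 to 48.6%) had a multi-exon isoform, against 30.5% (29.6 to 31.4%) of the other multi-exon protein-coding genes. Of those 488 genes, 379 (77.7%) showed a long intron in the isoforms found.

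Long introns were found on every major chromosome arm. The share of genes with a long intron was 12.4% (92 genes) on 3L, 11.1% (78) on 2L, 10.3% (97) on 3R, 8.71% (52) on X, 7.99% (62) on 2R and 7.14% (3 of 42) on the small chromosome 4. The intervals of 3L (10.3 to 15%) and 2R (6.28 to 10.1%) do not overlap, while those of neighbours in this order do. The 5 genes with a long intron that have no symbol in the annotation used here were counted but not named.

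Which kinds of genes carry long introns was described with 12 gene lists. Genes of cell adhesion and axon guidance had them most often, in 14 of 22 genes with a multi-exon isoform (63.6%, 43.0 to 80.3%), against 10.1% of all genes. They include Ten-m and Fas3, Fas2 (48434 nt), a neural cell adhesion molecule, sli (30358 nt), fra (26746 nt), the netrin receptor, and Ten-a (25256 nt). Lar, a receptor phosphatase of axon growth, had 2 long introns of up to 13771 nt, and caps, a leucine-rich repeat protein of target recognition, had 3 of up to 13968 nt. The median longest intron of the list was 13869.5 nt, against 626 nt over all genes.

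Transcription factor genes followed, with 15 of 29 (51.7%, 34.4 to 68.6%). Among them were pros (30541 nt), a homeodomain gene of neural fate, jim (30195 nt), a zinc-finger gene, lola (29576 nt), a locus of BTB zinc-finger isoforms, Sox102F (24531 nt) and Mef2 (23746 nt), the muscle and neuronal MADS-box gene. Receptor genes for neurotransmitters and peptides had long introns in 6 of 12 (50%, 25.4 to 74.6%). AstA-R1, an allatostatin receptor gene, had a first intron of 57086 nt and a second of 13248 nt, Octbeta2R, an octopamine receptor gene, reached 33756 nt, Pdfr, the receptor of the circadian neuropeptide PDF, 18556 nt, and SPR, the sex peptide receptor gene, 16889 nt. The intervals of these 3 lists lie above the share over all genes and overlap each other.

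In signalling and regulatory genes the shares were intermediate. Kinases, cyclic nucleotide and G protein signalling had 8 of 25 (32.0%, 17.2 to 51.6%), with rdgA, Pde1c, Egfr (31587 nt), the EGF receptor, CASK (24954 nt), a synaptic scaffold kinase, and norpA (16163 nt), the phospholipase of phototransduction. RNA-binding protein genes had 7 of 24 (29.2%, 14.9 to 49.2%), led by bru1, mbl, Rbp6 (44722 nt), a Musashi relative, and mub (32020 nt), a KH-domain gene. Of ion channel genes, 5 of 22 (22.7%, 10.1 to 43.4%) had one. The potassium channel genes Shab (26126 nt) and Sh (19351 nt) and the glutamate-gated chloride channel gene GluClalpha (21249 nt) are examples. Cytoskeleton and muscle genes had 6 of 37 (16.2%, 7.65 to 31.1%), with Ank2 (29393 nt), an ankyrin of axons and synapses, the longest. This Ank2 intron was also assigned to CG44195, and is 1 of 2 long introns assigned to more than 1 gene. The interval of this last list includes the 10.1% over all genes, and that of the ion channel list begins at it.

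Housekeeping lists had none. No long intron was found in 54 cytosolic ribosomal protein genes (upper limit 6.64%), 32 genes of the respiratory chain and ATP synthase (10.7%), 15 of the vacuolar ATPase (20.4%) or 10 of glycolysis (27.7%). Their median longest introns were 327.5 nt, 189.5 nt, 367 nt and 1127.5 nt. Of these lists only that of the ribosomal proteins has an upper limit below the share over all genes. Synaptic vesicle and active zone genes had 1 of 16 (6.25%, 1.11 to 28.3%), the intron of 10713 nt of cpx, which encodes the fusion regulator complexin. The intervals of the adhesion list and of this list do not overlap, whereas those of the receptor list and of this list do.

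**Figure D4:**
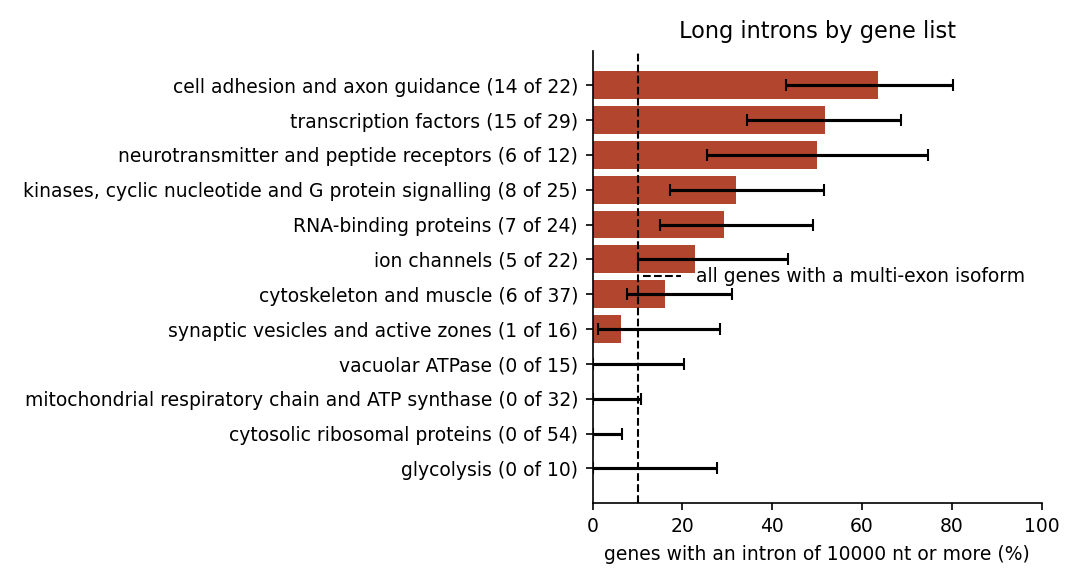
Percent of genes with a multi-exon isoform that had an intron of 10000 nt or more, for 12 gene lists, with 95% Wilson intervals and the counts in the labels. The dashed line marks the 10.1% over all genes, and adhesion and axon guidance genes stand highest at 63.6%.

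Families of neuronal recognition molecules, picked after their values were seen, had long introns in small numbers of detected genes. Of the dpr family, 6 of 10 had one, with dpr3 (27252 nt), dpr12 (26892 nt), dpr1 (26774 nt), dpr11 (26006 nt) and dpr10 (25678 nt) beside dpr8. Of their DIP partners 3 of 4 had one, the longest in DIP-gamma (41221 nt). The beat genes had 6 of 8, the longest in beat-IIIa (24725 nt), and the side genes, which encode their ligands, had 3 of 3, the longest in side-III (35515 nt). These members are related by descent and are not independent of each other.

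Transcripts that start inside a long intron bear on the question of the study. In 63 long introns (11.4%, 9.01 to 14.3%) another isoform of the same gene began within the intron, against 188 shorter introns (1.22%, 1.06 to 1.40%). Per Mb of intron the order was the reverse, with 5.67 starts in long introns and 18.6 in shorter ones. These starts lay in 52 of the 384 genes, and at a median of 54.6% of the way from the donor to the acceptor (quartiles 29.8 and 76.9%), so they were spread along the introns. A start inside overlapping introns of a gene was counted once for each of them, also in the rate per Mb. In mod(mdg4) all long introns with a start inside hold the same start (3R, 21359768). It is also the annotated 5′ end of separate units of that trans-spliced locus, and may belong to such a unit. In 43 of the 63 introns (68.3%, 56 to 78.4%) the isoform that began inside spliced its own first exon to the acceptor of the long intron.

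In CG44837 a start 73526 nt into the intron of 82096 nt was followed by an intron of 7407 nt to the shared acceptor. In Glut4EF, a transcription factor gene, a start 52695 nt into an intron of 54140 nt left an intron of 637 nt. The starts lay 4253 nt into an intron of 32020 nt in mub and 5390 nt into one of 31652 nt in btsz, and both left an intron that was itself long (27404 and 25816 nt). In tmod, the tropomodulin gene, starts lay 29674 and 37651 nt into the intron of 38301 nt. The internal starts thus lay both near the donor and near the acceptor. In EcR the start lay 19989 nt into the intron of 56758 nt, in rdx 916 nt into that of 55775 nt and in RapGAP1, a GTPase-activating protein gene, 5701 nt into that of 34749 nt.

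Genes with a long intron had more isoforms and more TSSs, counted as 5′ ends more than 50 nt apart. Of them, 33.6% had 2 or more isoforms (129 of 384, 29.0 to 38.5%) and 18.2% had 2 or more TSSs (14.7 to 22.4%), against 13.7% (12.6 to 14.9%) and 4.54% (3.89 to 5.30%) of the 3411 genes without one. A gene with more isoforms has more chances to show a long intron, so these shares are not independent of the choice of genes. Among genes with exactly 2 isoforms, 35 of 79 with a long intron (44.3%, 33.9 to 55.3%) and 105 of 342 without one (30.7%, 26.1 to 35.8%) had 2 TSSs, and these intervals overlap. In genes with several isoforms, 20.3% of long introns were present in every isoform, against 47.7% of shorter ones. Among only the isoforms that reach across the intron, the shares were 69.6% (63.2 to 75.3%) of long and 69.5% of shorter introns. Once isoforms that do not reach across an intron were set aside, long and shorter introns were therefore not separated. The isoforms set aside include those that lie wholly upstream or downstream of the intron, as well as those that begin or end inside it.

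Genes lying wholly inside long introns were counted in the Ensembl annotation. At least 1 nested gene lay in 219 long introns (39.6%, 35.6 to 43.7%), against 2.28% of shorter introns, and at least 1 protein-coding gene in 133 (24.0%), against 1.09%. Scaled to bases, 100 kb of long introns held 4.05 nested genes and 2.44 protein-coding ones, and 100 kb of shorter introns 4.58 and 2.01. Long introns with a nested gene had a median of 19648 nt and those without one 14136.5 nt. Annotated transposable elements, counted apart from genes, lay in 182 long introns (32.9%), against 302 of 15463 shorter introns (1.95%). These 2 shares were not scaled to bases.

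The long introns held 436 different nested genes, of which 263 were protein-coding, 126 non-coding RNAs, 36 tRNAs, 6 pseudogenes, 4 snoRNAs and 1 an snRNA. The shorter introns held 457, of which 126 were snoRNAs. Nested protein-coding genes were compact, with a median length of 1198 nt against 2162.5 nt for all protein-coding genes. The definition itself favours short genes, since a nested gene must lie wholly inside an intron. In 22 long introns there were 5 or more nested genes, and 23 lay within the introns of mod(mdg4). Those 23 are the separately annotated units of the trans-spliced mod(mdg4) locus itself. The introns of EcR held 15 nested genes, 13 of them tRNA genes for arginine, asparagine, isoleucine and lysine. The intron of 47931 nt in SLO2, a sodium-activated potassium channel gene, held 14, among them the gustatory receptor gene Gr47a and the ionotropic receptor gene Ir47a. Several of these 14 are annotated at identical positions. The introns of Pde1c held 12, including the maltase genes Mal-B1 and Mal-B2 and the Polycomb group gene esc, and that of CG44837 held 9.

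Nested genes lay more often on the strand opposite to their host. Of the 436, 274 were on the opposite strand and 162 on the same strand, or 62.8% opposite (58.1 to 67.4%, Clopper-Pearson). The adjusted p of the exact sign test, two-sided, was 9.08e-08. For protein-coding genes the numbers were 173 and 90 (65.8% opposite, exact p = 3.45e-07). Neighbouring nested genes share a host and are not independent. With 1 vote for each host gene, 109 of 161 hosts had more nested genes on the opposite strand (67.7%, exact p = 8.29e-06), and 20 further hosts had equal numbers. Without mod(mdg4), 265 of 413 were opposite (64.2%). Hosts differed, since in SLO2 11 of 14 lay on the same strand. In shorter introns 207 of 457 nested genes (45.3%, 40.8 to 49.9%) were on the opposite strand. However, 126 of these 457 were snoRNAs, against 4 of the 436 in long introns. Strand was not split by gene type in shorter introns, so the shares of long and shorter introns do not compare like genes.

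**Figure D5:**
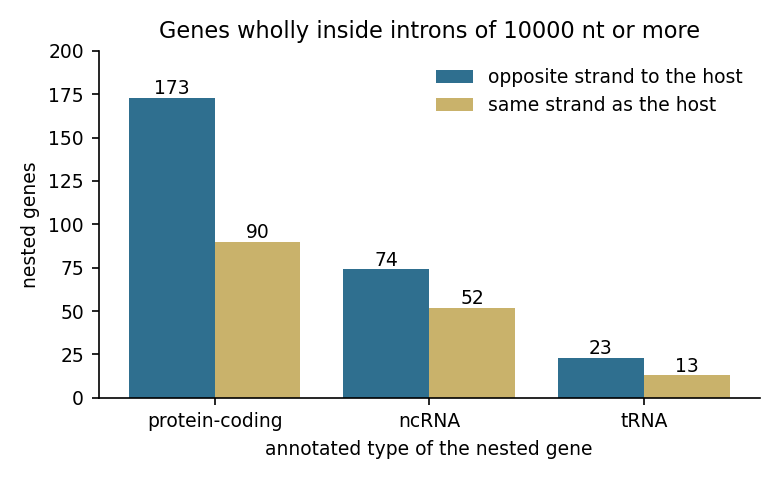
Number of annotated genes wholly inside introns of 10000 nt or more, by annotated type, on the strand opposite to the host gene and on the same strand (types with at least 30 nested genes). Protein-coding genes show 173 opposite and 90 same-strand genes, non-coding RNAs 74 and 52, and tRNAs 23 and 13.

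Few nested protein-coding genes had an isoform of their own in this set. The libraries were enriched for transcripts above 3 kb, and nested protein-coding genes had a median length of 1198 nt. A gene without an isoform may therefore still be transcribed in heads, and the effect of length on these shares was not tested. Of the 263 nested protein-coding genes 23 had an isoform (8.75%, 5.90 to 12.8%), against 28.8% (28.1 to 29.6%) of all annotated protein-coding genes and 12.9% (8.98 to 18.3%) of those inside shorter introns. On the opposite strand 21 of 173 had one (12.1%, 8.08 to 17.8%), and on the same strand 2 of 90 (2.22%, 0.611 to 7.75%). Without mod(mdg4) these were 18 of 164 (11.0%, 7.06 to 16.7%) and 2 of 76 (2.63%, 0.725 to 9.10%), and the intervals then overlap. This split was noticed in the data and was not tested. Outside mod(mdg4), no isoform lay within a same-strand nested gene under the label of another gene.

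The nested genes with an isoform include genes of known roles in heads. On the same strand as their hosts were Syx1A, the syntaxin of synaptic vesicle fusion, inside eIF4EHP, a translational repressor gene, and alrm, an astrocyte gene, inside Fur1. On the opposite strand were PGRP-LB, an amidase that dampens immune responses, inside CG17230, Tret1-1, a trehalose transporter gene, inside Roc2, Ssk, a septate junction gene, inside CG42674, Idgf6, a chitinase-like growth factor gene, inside Pgant9, and the cytochrome P450 gene Cyp4d20 inside Svil. Mal-B1 and Mal-B2 inside the Pde1c intron of 72912 nt both had isoforms. These names were chosen after their values were seen.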

How the data were processed

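The authors pooled the consensus reads of the Iso-seq libraries, mapped them with STARlong (dm6) and used FLAIR with short-read junctions and a promoter database to build isoforms of at least 2 full-length reads, with up to 5 ends for a splice chain. Size selection and this 5′ support decide which transcripts, and so which introns, can be seen. In the study, transcripts whose 3′ ends lacked support from methods that read the poly(A) tail were largely removed. Whether this was done for the set used here is not stated. The deposited file holds exon coordinates, other than expression values, without abundance, and the depth of the libraries is unknown here. Because libraries were pooled, no replicate could be left out.

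Introns were the gaps between sorted exons of isoforms with a gene identifier, and an intron seen at several ranks took the lowest. Genes, start codons and nested genes came from the Ensembl BDGP6 annotation (dm6 coordinates), which is later than the one the authors used; 3771 of 3795 gene identifiers matched. For the sign test 1 isoform per gene (most exons, then longest span) was used. Shares have 95% Wilson intervals. Of 4 planned sign tests 2 were run and adjusted together (Benjamini-Hochberg); the 2 on splice site sequence were not, since no genome sequence was used here. The script for first and last introns was tested on simulated data.

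The threshold, the gene lists and the tests were chosen with earlier results of these data known. Named genes are those of the 15 longest long introns, with 3 or more of them, with most nested genes (5), nearest the threshold on either side (3 each), the 4 longest of each list, and the 10 longest with an internal start; others were chosen after their values were seen. Python 3.11.15, numpy 2.4.6, scipy 1.17.1 and matplotlib 3.10.9 were used.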

Additional observations from a re-analysis of the deposited data

Results flagged for a closer look

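An intron of 26619 nt on chromosome X (9473267 to 9499885, minus strand) lay at a locus to which the file gives no gene identifier, and it was therefore not among the 553. Its isoform has 2 exons, and this junction is not in the annotation. It starts at the donor of the first intron of 27228 nt in mgl, a megalin-like endocytic receptor gene, and its acceptor lies 609 nt upstream of the mgl acceptor. It drew attention because the signal lies outside the isoforms assigned to genes.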

How the results depend on the processing

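The counts follow the length threshold. At 5000 nt there were 1073 introns in 670 genes, and at 20000 nt 192 in 147 genes. With 1 intron per gene (the longest), 50.6% were first introns instead of 44.3%, and with ranks taken from the annotation 45.7%. The excess of long first over long last introns kept its direction and stayed past the threshold of 0.05 under the isoform with the longest span, both other length thresholds and annotated splice chains, from 79.7% (55 of 69 genes at 20000 nt, exact p = 6.92e-07) to 91.9%. The excess of nested genes on the opposite strand did so with protein-coding genes only, both thresholds, 1 intron per gene, 1 vote for each host and without mod(mdg4), from 60.1% (152 of 253 at 20000 nt, exact p = 0.00162) to 67.7%. The last 2 of these were chosen after seeing the data. Leaving out a library was not possible with the pooled file, and the planned tests of the 5′ splice site and of recursive splice motifs were not run. The libraries' depth is unknown, so an annotated long intron that was not found may lie in a transcript that was not sampled.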
